A study of Mus musculus with 6 samples.

Results

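KCTD proteins carry a BTB domain that resembles the tetramerization domain of voltage-gated potassium channels, and many of them act as adaptors that bring proteins to the Cul3 ubiquitin ligase. The family is divided by sequence into small branches, some with well studied partners (GABA-B receptors, AP-2 transcription factors, histone deacetylases of the hedgehog pathway) and some, such as Kctd14, with little known about them. Described here are Kctd14 and 8 further genes of the family in cells that had expressed Gli1, a hedgehog-responsive transcription factor active in theca precursors. The theca is the sheath of hormone-making and contractile cells around an ovarian follicle. The list of 9 genes (Kctd1, Kctd3, Kctd9, Kctd10, Kctd12, Kctd14, Kctd15, Kctd17 and Kctd20) was built around Kctd14, which was itself selected on the comparison described below as the gene whose signal was lower past the threshold. Their values are therefore a description, and no p-value is given for them. How the other 8 were picked from the family is not given in the sources used here.

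Of the 9 genes, 7 had at least 1 probe set annotated to that gene alone, with 13 probe sets in all, out of 18193 genes named this way on the array. Kctd3 had none, and the 1 probe set annotated to Kctd12 also names a microRNA gene, so neither was analysed here. All 7 lay past the floor below which genes were not tested (a signal of 99.4), as did 11703 of the 18193 genes. Within the family, the gene just past the floor was Kctd13 at a mean signal of 129 and the one just below it Kctd4 at 75.0, and neither is among the 9.

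The cells came from the ovaries of female Gli1-CreERT2; Rosa-LSL-tdTomato mice of strain 129S6/SvEvTac, killed at 2 months of age and sorted for the red reporter. In both groups Cre was made where Gli1 was active, so the label marks cells that expressed Gli1 while tamoxifen was present and their descendants, whatever they express later. The mesonephros-derived group (n = 3) was exposed to tamoxifen before birth, with a first dose on E12.5, another on E14.5 and the final one on E16.5. The ovary-derived group (n = 3) was exposed after birth, from day 1 to day 3, by way of the milk of treated dams. Origin and the time of tamoxifen cannot be told apart. The labels do not say whether replicates came from separate animals, so the spread between them may be technical.

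Markers were read to check the labelled cell type. Of 5 steroidogenic theca markers with a probe set all 5 were past the floor, as were 9 of 9 stromal and 9 of 9 smooth muscle and pericyte markers. Markers of other cells were also read. Past the floor were 0 of 9 markers for surface epithelium, 1 of 8 for oocytes (Nlrp5) and 1 of 6 for lymphoid cells (Ptprc). By contrast 9 of 10 endothelial and 7 of 9 macrophage markers were past the floor. So were 2 of 4 luteal markers, Hsd3b1 (also counted as steroidogenic) and Scarb1, while Ptgfr and Akr1c18 were below it on average. Erythroid markers were past it in 1 of 2 (Alas2). Granulosa markers were divided. The 5 of 9 past the floor were Foxl2, Inha, Inhba, Hsd17b1 and Wnt4, and Fshr, Amh, Fst and Nr5a2 were below it. Foxl2 was the brightest, at group means of 3991 (mesonephros-derived) and 4520 (ovary-derived). Amh, although counted below, read 511 and 234 on mesonephros-derived replicates 1 and 2, and 33.4 on replicate 3. Ovary-derived arrays correlated with each other at 0.963 to 0.973 and mesonephros-derived arrays at 0.844 to 0.896. Replicate 3 of the latter was closer to the other group (0.946 to 0.950) than to its own (0.876 and 0.896). Mesonephros-derived replicates 1 and 2 correlated at 0.844, below their values with ovary-derived arrays (0.871 to 0.875 and 0.887 to 0.893). Poly-A spikes, control transcripts meant for addition to RNA before amplification, were high on the mesonephros-derived arrays. They stood at 2.46 (replicate 3) to 15.3 (replicate 1) relative to the mean of the other group, whose own arrays ran from 0.677 to 1.78. Hybridisation spikes, a separate set of controls, were higher there too, at 3.42, 2.77 and 1.40 against 0.838 to 1.24. The 3′ to 5′ signal ratio of Gapdh was 5.29, 3.48 and 2.63 against 1.94 to 2.86.

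Kctd14 gave less signal in mesonephros-derived than in ovary-derived cells on every array and with all 4 of its probe sets. With the brightest, 1455452_x_at, the signal was 436, 634 and 910 in mesonephros-derived replicates 1, 2 and 3. In the ovary-derived replicates it was 4074, 2826 and 3230. The highest mesonephros-derived array thus lay well below the lowest ovary-derived one. The means were 660 ± 238 and 3377 ± 637 (SD, n = 3 each), and the change on the scale log2(signal + 16) was −2.37 ± 0.29 (SE, limma), or 5.18-fold lower. On bulk sorted cells, fewer cells with the transcript and less transcript per cell cannot be told apart.

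The other 3 probe sets of Kctd14 agreed in direction and differed in size. Probe set 1455451_at, designed from the same transcript sequence as the brightest one, read 237, 429 and 407 against 1934, 1191 and 1606, a change of −2.11 ± 0.32 (SE). Over the 6 arrays these 2 probe sets correlated at 0.988. Probe set 1426633_s_at read 902, 75.8 and 228 against 2006, 2072 and 1628, a change of −2.80 ± 0.67. It was the most variable within the mesonephros-derived group, with replicate 2 under the floor and replicate 1 nearest the other group. Probe set 1426632_at, designed from the same transcript sequence as 1426633_s_at, read 440, 691 and 462 against 762, 784 and 743, a change of −0.54 ± 0.28, or 1.45-fold. Here replicate 2, the lowest array on 1426633_s_at, was the highest of its group, and the 2 probe sets correlated at 0.368. An ending in _s_at or _x_at marks probe sets whose probes may match more than 1 transcript. The direction was thus shared by all 4, while the size ran from 1.45-fold to 6.96-fold. The upper value, from 1426633_s_at, rested on single arrays: it was 4.03-fold without mesonephros-derived replicate 2 and 12.7-fold without replicate 1.

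**Figure D1:**
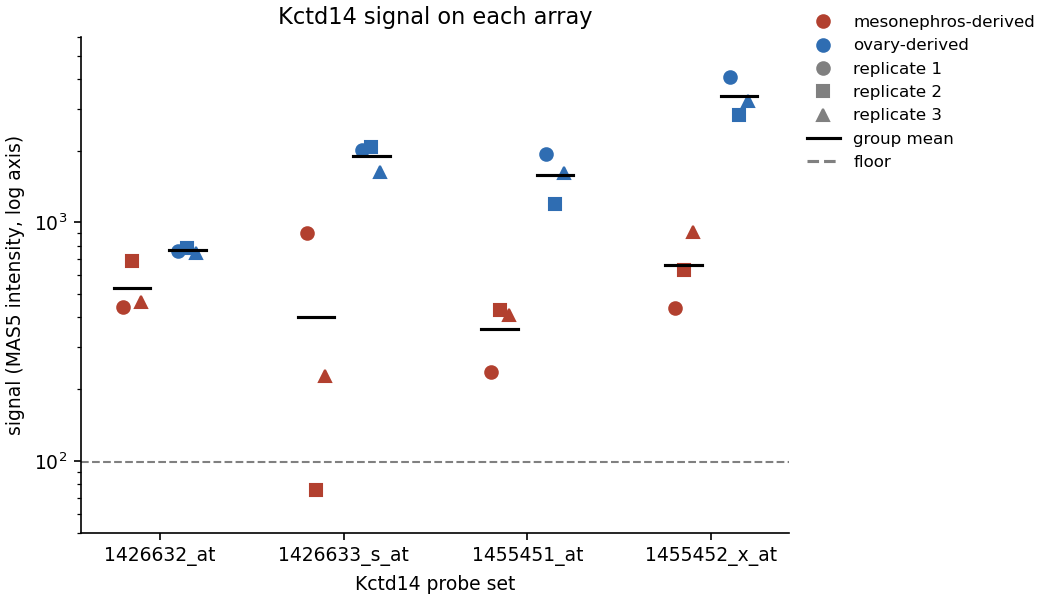
Signal of Kctd14 (MAS5 intensity, log axis) on each of the 6 arrays for its 4 probe sets; the marker shape gives the replicate, black lines are group means and the dashed line is the floor of 99.4. The mesonephros-derived points lie below every ovary-derived point on each probe set, by the least on 1426632_at, and replicate 2 of that group falls under the floor on 1426633_s_at.

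Across all 11703 genes, 1 was lower (0.00854%) and 4 were higher (0.0342%) at an adjusted p of 0.05 in limma, and Kctd14 was the lower one, as it was chosen to be. By size, 16 genes had a more negative change. Kctd14 kept its lower direction in all 19 alternative fits over genes, with changes from −2.63 to −1.56. That direction was largely fixed in advance, since Kctd14 was selected as lower and its groups did not overlap. Leaving out a sample or changing the pseudocount, floor or variance model could not reverse it. Kctd14 passed the threshold in 8 of the 20 alternatives run over genes or probe sets. It did not pass without mesonephros-derived replicate 2 or 3 or without any one of the ovary-derived replicates, where the change was −2.63 to −2.23 on the same probe set. Nor did it pass on all 6 arrays with a pseudocount of 1, median centring, a robust variance model or no intensity trend. The same held without _x_at and _s_at probe sets, over all probe sets and under the spike covariate described below. Kctd14 passed only narrowly in the main fit. The groups did not overlap on any of its 4 probe sets, which held in the lower direction for 10.6% of all 45037 probe sets and in the higher direction for 8.22%.

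Among the mesonephros-derived arrays the brightest probe set was lowest on replicate 1 and highest on replicate 3, the array with the least excess of poly-A spikes and the one that resembled the other group most. The other 3 probe sets did not share that order. Probe set 1426633_s_at was highest on replicate 1 (902), and 1455451_at (429) and 1426632_at (691) were highest on replicate 2. On the brightest probe set the change was −2.63 without replicate 3 and −2.11 without replicate 1. With the log2 poly-A spike signal as a covariate, an alternative chosen after seeing the data, it was −1.56. Marker lists were set beside these values. The summed signal of the smooth muscle and pericyte markers was 65378 to 81072 in mesonephros-derived and 31931 to 39565 in ovary-derived arrays, with 9 of 9 markers higher and 2 past the threshold. That of steroidogenic markers was 24455 to 42405 against 15011 to 22747, with 4 markers higher and 1 (Nr5a1) lower. That of stromal markers was 92449 to 137280 against 72743 to 82259, with 6 higher and 3 (Gli1, Ptch1 and Pdgfra) lower. Endothelial markers were lower in 8 of the 9 past the floor (summed signal 3895 to 7615 against 6109 to 9908) and macrophage markers in 7 of 7 (1387 to 11074 against 5383 to 8073), with overlapping sums. None of the steroidogenic, stromal, endothelial or macrophage markers passed the threshold in limma (0 in each list), beside 5 of all 11703 genes tested. The part of these cells, or of array quality, in the Kctd14 values was not tested.

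Kctd7, the closest relative of Kctd14 in sequence and a gene mutated in a progressive myoclonic epilepsy, is not among the 9. Its brighter probe set read 286, 258 and 266 in mesonephros-derived and 296, 206 and 380 in ovary-derived replicates, a change of −0.08 ± 0.35 (SE, limma adjusted p = 0.938 over all genes). Its other probe set read 198, 156 and 236 against 398, 282 and 389, a change of −0.81 ± 0.37 without overlap between the groups. The 2 probe sets of Kctd7 thus differed, and the brighter one overlapped between the groups.

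Kctd10, with Kctd13 and Tnfaip1, forms a branch of Cul3 adaptors. Its only probe set read 452, 694 and 1239 in the mesonephros-derived replicates. In the ovary-derived replicates it read 1358, 1533 and 941. Replicates 1 and 2 of the first group were below all ovary-derived arrays, and replicate 3 was among them. The change was −0.76 ± 0.37 (SE), −1.14 without mesonephros-derived replicate 3 and −0.42 without replicate 1, and it turned to 0.57 with the spike covariate. Both relatives stood lower too. Tnfaip1 had the smallest p of the other KCTD genes, with 1450, 1600 and 1235 against 2663, 2286 and 2050 and no overlap. Its change was −0.70 ± 0.21 (limma adjusted p = 0.263), its other probe sets stood at −0.67 and −0.14, and it did not pass. Kctd13, close to the floor, stood at −0.52 ± 0.41.

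Kctd1 and Kctd15 form a branch that inhibits AP-2 transcription factors, and Kctd15 is known for limiting neural crest formation. The 2 probe sets of Kctd1 went opposite ways. The brighter one read 353, 810 and 388 in mesonephros-derived and 175, 366 and 312 in ovary-derived replicates, a change of 0.79 ± 0.43 (SE) that fell to 0.42 without mesonephros-derived replicate 2 and to 0.49 without ovary-derived replicate 1. The other read 68.4, 262 and 324 against 361, 430 and 377, a change of −1.01 ± 0.53. So the direction of Kctd1 depended on the probe set, and the mean of both was −0.11. Kctd15 read 1710, 1014 and 1348 against 1480, 1407 and 1275, a change of −0.06 ± 0.24, with ovary-derived arrays inside the range of the mesonephros-derived ones.

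Kctd17 leads trichoplein, a protein that holds back the primary cilium, to degradation through Cul3, and it belongs to a branch with Kctd2 and Kctd5. It read 566, 1317 and 1415 in mesonephros-derived and 1404, 953 and 1162 in ovary-derived replicates. Only mesonephros-derived replicate 1 stood apart, and the change of −0.18 ± 0.36 (SE) became 0.23 without it. Kctd2 read 2962, 1781 and 1655 against 1397, 1493 and 1634, a change of 0.45 ± 0.26 (limma adjusted p = 0.459) without overlap. Kctd5, whose protein binds G protein beta subunits, stood at −0.69 ± 0.43.

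Kctd20, a relative of Btbd10 linked to Akt phosphorylation, had 3 probe sets that stood lower in mesonephros-derived cells. The brightest read 647, 986 and 692 against 979, 1116 and 877, a change of −0.37 ± 0.26 (SE) with overlap between the groups. Without mesonephros-derived replicate 2 it was −0.55 on this probe set, and −0.94 on the next one, which was then the brightest. The next read 688, 904 and 471 against 1145, 1196 and 982, a change of −0.72 ± 0.29, and the dimmest 207, 383 and 354 against 401, 391 and 516, a change of −0.49 ± 0.35. On these latter 2 the groups did not overlap. Kctd9, which carries pentapeptide repeats beside its BTB domain, read 470, 259 and 553 against 411, 425 and 565, a change of −0.17 ± 0.36. Its lowest array was mesonephros-derived replicate 2, without which the change was 0.14.

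**Figure D2:**
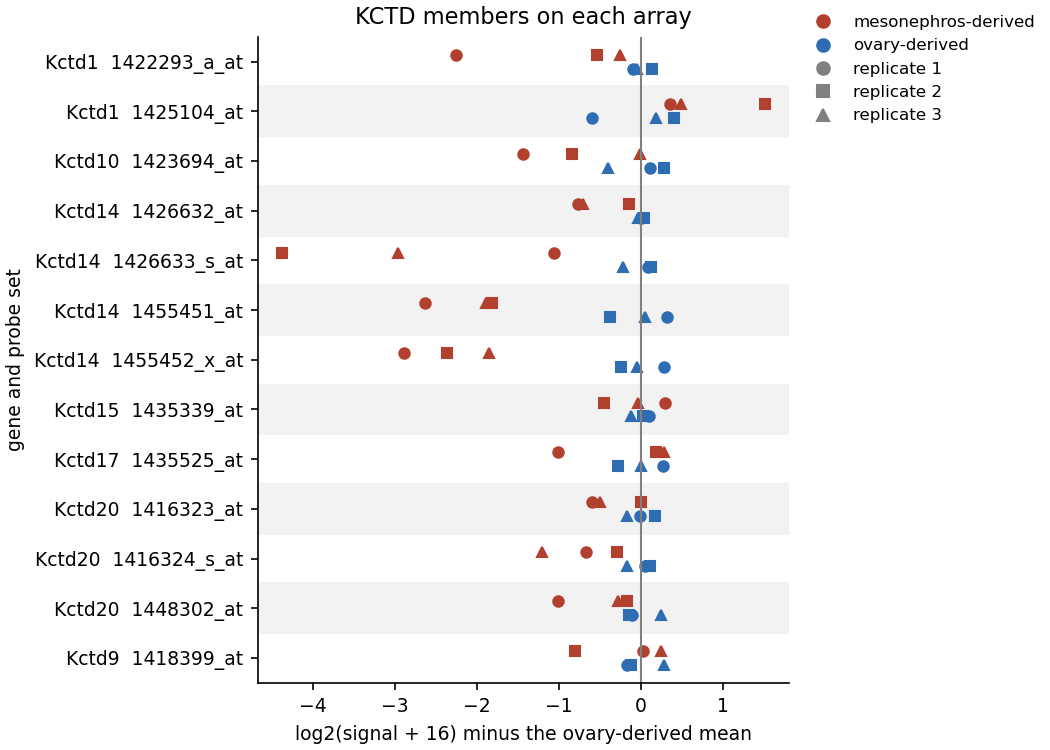
Each array's log2(signal + 16) minus the ovary-derived mean for the 13 probe sets of the 7 members; colour gives the group and marker shape the replicate. Kctd14 has the points farthest to the left, the mesonephros-derived points of Kctd1 lie on opposite sides of 0 on its 2 probe sets, and the mesonephros-derived points spread more widely than the ovary-derived ones on all 13 probe sets.

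Taken over the members, 6 of the 7 genes stood lower and 1 higher, with a median change of −0.18 log2 units. Of all genes tested, 56.5% stood lower, with a median of −0.08. Of the 13 probe sets 12 stood lower, as did 53.4% of all probe sets. The groups did not overlap, in the lower direction, on 7 of the 13, and on 3 of the 9 that are not from Kctd14, beside 10.6% of all probe sets. At the gene level 1 of 7 members was lower without overlap and 0 higher, beside 12.6% and 9.56% of all genes tested. These counts come from the comparison that the list was built on and are not support for a shared direction. With arrays centred on their median 5 of the 7 stood lower, and 4 of the 7 with array weights or without mesonephros-derived replicate 2. With probe sets averaged per gene 7 of the 7 did, and with the spike covariate 2 of the 7, with a median of 0.19. On the log2 scale, the SD between mesonephros-derived arrays exceeded that between ovary-derived arrays on all 13 probe sets. The same held for 78.3% of all probe sets. In signal units the mesonephros-derived SD was the smaller one on the Kctd14 probe sets 1455452_x_at (238 against 637) and 1455451_at (105 against 372).

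Of the other KCTD genes, 16 were listed, 14 had a probe set and 11 were past the floor. None of the 11 passed the threshold in limma over all genes (0 higher and 0 lower), beside 5 of all 11703 genes tested. An unadjusted p under 0.05 was found for 2, both lower, where 13.7% of all genes tested did. Besides Tnfaip1 the second was Kctd12b, a relative of Kctd12 in the branch of GABA-B receptor subunits. It read 329, 231 and 351 in mesonephros-derived and 499, 519 and 466 in ovary-derived replicates, a change of −0.70 ± 0.31 (SE, limma adjusted p = 0.365), with its other probe set at −1.26. Kctd6 and Kctd21 belong with Kctd11 to the branch that restrains Gli1 by removing histone deacetylase 1. Kctd6 read 1406, 1406 and 1610 against 1234, 1080 and 1033, a change of 0.40 ± 0.21 (adjusted p = 0.422) without overlap, and Kctd21 stood at −0.18 ± 0.59. Over the whole family, 14 of the 18 genes past the floor stood lower, the selected Kctd14 included, beside 56.5% of all genes tested.

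**Figure D3:**
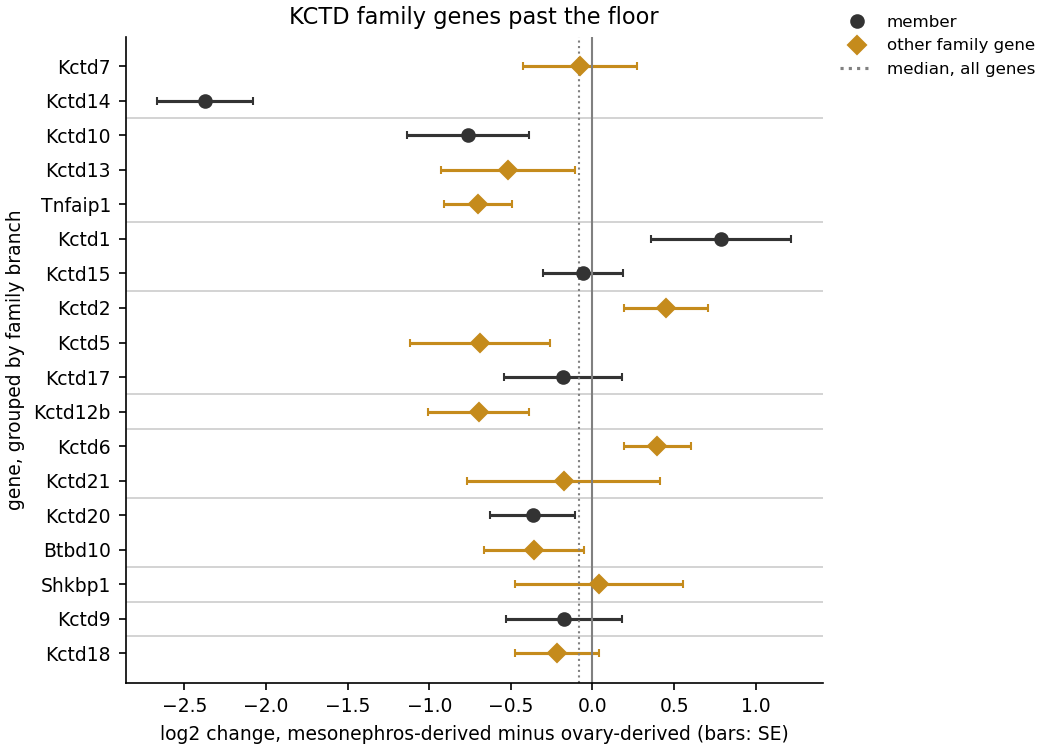
Log2 change (mesonephros-derived minus ovary-derived, bars are SE) of the 18 KCTD family genes past the floor, grouped by branch; circles are members, diamonds other family genes, and the dotted line is the median of −0.08 over all genes tested. On the brightest probe set of each gene, Kctd14, selected on this comparison, lies at −2.37, apart from the other 17, which fall between −0.76 and 0.79. Probe sets not shown narrow that gap: Kctd14 stands at −0.54 on 1426632_at, while Kctd2, Kctd12b and Kctd1 stand at −1.68, −1.26 and −1.01 on their dimmer ones.

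Genes that work with KCTD proteins were taken from 3 lists with 54 genes past the floor. In limma 0 of the 54 passed the threshold in either direction, beside 5 of all 11703 genes tested. With so few passing in all, a count of 0 says little about these lists. An unadjusted p under 0.05 was found for 6 of the 54 (5 lower and 1 higher), beside 13.7% of all genes tested. In the Cul3 ligase machinery 12 of 17 genes stood lower, with Cul3 itself at 0.04 ± 0.21 (SE) and the signalosome subunit Cops6 at −0.98 ± 0.31 (limma adjusted p = 0.279), followed in order of p by Senp8, Ube2f and Cops5. Cops6 read 895, 737 and 1738 against 2256, 1915 and 2101, so the groups did not overlap, while its other probe set stood at −0.16. Among other BTB adaptors of Cul3, 17 of 27 stood lower. Klhl7 had the smallest p at 271, 213 and 510 against 931, 989 and 741, a change of −1.46 ± 0.36 (adjusted p = 0.229). Klhl15 at −0.84 ± 0.40, Kbtbd2 at −0.51 ± 0.24 and Spop at 0.38 ± 0.19 came next.

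Of the 10 partners and substrates past the floor, 6 stood higher and 4 lower. Gabbr1, the GABA-B receptor subunit that binds the ligand, read 5611, 3994 and 3107 in mesonephros-derived and 1608, 2183 and 2699 in ovary-derived replicates. Its groups did not overlap, yet the change of 0.95 ± 0.27 (SE, limma adjusted p = 0.257) did not pass, and its other probe sets ran from −0.16 to 1.18. The G protein subunit Gnb4 stood at −0.88 ± 0.29, the replication clamp Pcna at −0.83 ± 0.28 and the polymerase subunit Pold2 at −0.99 ± 0.34, with adjusted p-values of 0.288 to 0.302. Hdac1, the target of the Kctd6 branch, stood at 0.08 ± 0.24 and Tchp, which encodes trichoplein, at 0.52 ± 0.35.

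The genes whose pattern over the 6 arrays was most like that of Kctd14 were ranked by Pearson correlation on the log2(signal + 16) scale among 11702 other genes. These correlations describe 6 points that fall into 2 groups and share their arrays and scaling. The 10 closest correlated at 0.988 to 0.996 and were Arid2, 4930445K14Rik, Eri3, Scml4, Cbfb, Heatr1, Tyw1, Mettl24, Zc3h7b and Txnl4a. All 10 stood lower without overlap, beside 12.6% of all genes tested. That follows largely from picking them for likeness to Kctd14, whose groups do not overlap, and is not a separate result. Of the 10, 0 passed the threshold in limma, with adjusted p-values of 0.103 to 0.632, beside 5 of all 11703 genes tested. Arid2, a subunit of a chromatin remodelling complex, was the closest, at 1167, 1213 and 1352 against 2102, 1917 and 1961, a change of −0.68 ± 0.19 (SE). Its change was a smaller one than that of Kctd14, since a correlation ignores size. Scml4 had the most negative change of the 10, with 225, 279 and 323 against 1020, 920 and 866, or −1.72 ± 0.28. Within the family Tnfaip1 (r = 0.865) and Kctd12b (0.863) were the most alike, at ranks 667 and 692, and among the members Kctd10 (0.774, rank 1378).

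The order of genes along the chromosome places Kctd14 between Thrsp and Ints4, with Kctd21 4 protein-coding genes away, per the RefSeq table for GRCm38.p6. The 5 protein-coding genes on each side were examined, a choice made after the values were seen. Of the 10, Usp35 had no probe set annotated to it alone, and the other 9 were past the floor. In limma 0 of the 9 passed the threshold (adjusted p 0.379 to 0.911, 0 at an unadjusted p under 0.05), beside 5 of all 11703 genes tested. Thrsp, a regulator of lipid synthesis, read 486, 492 and 123 against 176, 201 and 142, a change of 0.81 ± 0.54 (SE). Ints4, an Integrator complex subunit, read 1569, 1425 and 1015 against 1882, 1478 and 1694, a change of −0.35 ± 0.24. Both overlapped between the groups. Alg8, a glycosyltransferase of the endoplasmic reticulum, was the 1 neighbour of 9 without overlap. Of all genes tested, 12.6% were lower and 9.56% higher without overlap. Alg8 read 158, 7.23 and 243 against 427, 259 and 322, with mesonephros-derived replicate 2 far under the floor and a change of −1.77 ± 0.81.

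**Figure D4:**
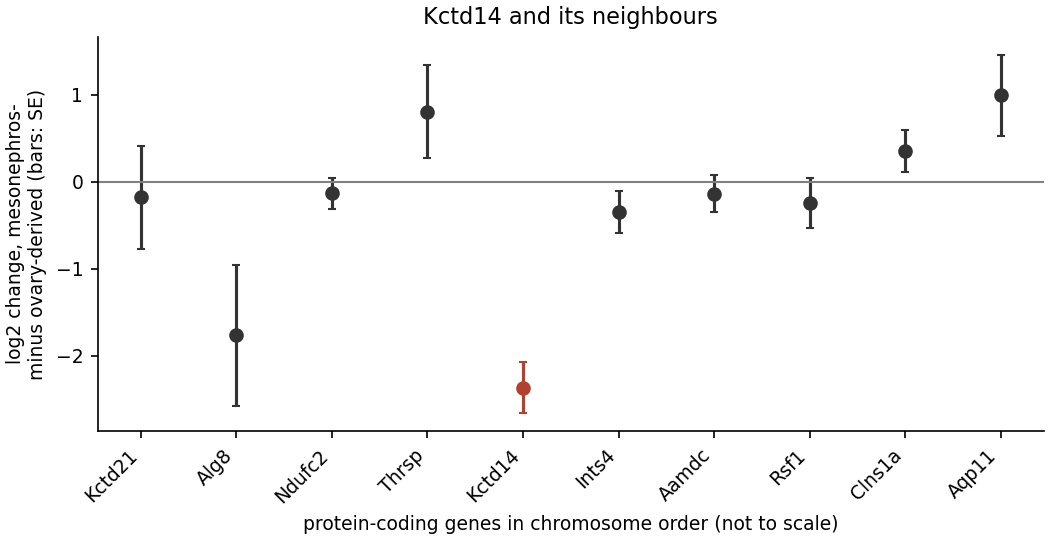
Log2 change (mesonephros-derived minus ovary-derived, bars are SE) of Kctd14 and of the 9 neighbouring genes past the floor, in chromosome order and not to scale. Kctd14 stands at −2.37, Alg8 at −1.77 and the other neighbours between −0.35 and 1.00.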

How the data were processed

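RNA from 6 samples, 3 per group, was measured on 1-colour arrays. The deposited values are linear intensities per probe set, made by the authors with MAS5 per the submitters' processing notes, version and settings not given in the sources used here. Amplification started from equal volumes, not equal amounts, of RNA, per the labels' protocols. Each array's mean after trimming 2% at each end was 500. The number of arrays limits the precision. No 2 arrays were identical.

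Of 45101 probe sets, 64 controls were left out. Of the rest, 34945 had 1 gene symbol, 932 several and 9160 were unnamed here. Values were taken as log2(signal + 16), which understates changes of dim genes. Each gene was represented by its brightest probe set, and genes below the 40th percentile of probe sets were not tested. Groups were compared over all genes with limma 3.58.1 in R 4.3.3 (eBayes with an intensity trend, Benjamini-Hochberg adjustment), and values of single probe sets come from the same model over all 45037 probe sets. The code was tested on simulated data whose spread was capped and equal in both groups. That test does not show how the fit performs with the wider mesonephros-derived spread found here.

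The members and lists were chosen with earlier results of these data known. Named were all members, up to 4 genes of each list with the smallest p, family genes nearest the floor, the 10 genes most like Kctd14, and markers; others were named after their values were seen. Same-numbered replicates deviated together at correlations of 0.004 to 0.042, so they were not treated as pairs. Alternatives were other pseudocounts (1 and 64), floors (none or the 60th percentile), scalings, probe set rules, variance models, array weights, a replicate block, each sample left out and, added later, a spike covariate.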

Additional observations from a re-analysis of the deposited data

How the results depend on the processing

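Kctd14 stood lower in all 19 alternative fits over genes, a direction largely fixed by its selection and by groups that do not overlap. Its change moved to −1.955 with its probe sets averaged and to −1.56 with the poly-A spike covariate, which was chosen after seeing the data. The median change of the members was −0.415 to −0.18 with 1 sample left out, the former without mesonephros-derived replicate 3, and 0.19 with the spike covariate.

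The 5 genes past the threshold became 3 with a pseudocount of 1, 2 with median centring (2 higher and 0 lower, beside 4 and 1), 8 with probe sets averaged per gene, 129 with array weights and 2 over all probe sets. They became 0 without the intensity trend (1504 at an unadjusted p under 0.05) and 0 with the spike covariate (305). With 1 sample left out they numbered 0 to 46: 46 when mesonephros-derived replicate 1 was dropped, 3 when it was replicate 2, and 0 when it was replicate 3 or a single ovary-derived sample (638 to 2432 at an unadjusted p under 0.05). With the replicate block, where numbers are shared without pairing the samples, 4 genes passed, Kctd14 included. The causes were not tested. None of the other KCTD genes or of the Cul3 lists passed in any of the 19 fits, in which 0 to 129 of all genes did. Members with a change smaller than their SE (Kctd9, Kctd15, Kctd17) took the other sign in 3 of the 19 fits each. With 3 samples a group, dim probe sets near the floor give little precision.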

Other observations

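Of the 12 probe sets of the other KCTD genes that lay below the floor or were not the brightest of their gene, 7 overlapped between the groups. The remaining 5 were lower without overlap and 0 were higher. Of all 45037 probe sets 10.6% were lower and 8.22% higher without overlap. The 12 are few and dim or secondary, so no shared direction is read from them. Kctd4 read 8.90, 36.4 and 102 in mesonephros-derived and 140, 135 and 129 in ovary-derived replicates on 1 of its 2 probe sets, both with a mean below the floor. On the dim probe set of Kctd2 the mesonephros-derived signal was under the floor on all 3 arrays, at 54.8, 39.3 and 33.8 against 157, 203 and 152, which makes it at least 1.60-fold lower there, opposite to the brighter one. The more variable probe set of Kctd12b read 78.1, 240 and 443 against 468, 569 and 517, and that of Tnfaip1 that overlapped between the groups read 2473, 1363 and 1504 against 2073, 1921 and 1706. Both probe sets of Kctd8, a subunit partner of GABA-B receptors, were below the floor on all 6 arrays.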
